A study of Mus musculus with 22 samples.

Results

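The 38 Hox genes described here were those of the 4 mouse clusters: 10 in cluster A on chromosome 6, 10 in cluster B on chromosome 11, 9 in cluster C on chromosome 15 and 9 in cluster D on chromosome 2. Their members were CpG cytosines covered in all 22 mice and lying in the body of a Hox gene or within 2 kb of a RefSeq transcription start site (TSS), which gave 2988 of 1140639 positions. Cluster A held 839 of them, cluster B 661, cluster C 514 and cluster D 974, and 2428 lay within 2 kb of a TSS while 560 lay in a gene body only. Methylation was measured by enhanced reduced representation bisulphite sequencing (ERRBS), in which bisulphite turns unmethylated cytosines into bases read as thymine, so that the percent of reads still read as cytosine is the methylation level. Bisulphite does not separate 5-methylcytosine from 5-hydroxymethylcytosine. The 10 PyMT mice were F1 females heterozygous for the MMTV-PyMT transgene, in which the mouse mammary tumour virus promoter drives the polyoma middle T oncogene mainly in mammary epithelium, and the 12 FVB mice were age-matched females of the same background without it. PyMT mice were taken at week 6 (hyperplasia, 2 mice), week 8 (adenoma/MIN, 3), week 10 (early carcinoma, 3) and week 12 (late carcinoma, 2), and 3 FVB mice at each of these ages. Week 6 PyMT samples were mammary glands and later ones tumours, so tissue and stage cannot be told apart there, and FVB samples were mammary glands throughout. Whole pieces were used, so each value is a mean over all cells of the piece, and a change in the mix of cells cannot be told apart from a change within a cell type.

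Hox genes encode homeodomain transcription factors that give cells their position along the body axis. Within a cluster their order on the chromosome follows the order in which they are used from head to tail, and genes of the same rank in different clusters (paralog groups) are close relatives. In most adult tissues the clusters are CpG-rich, carry little methylation, and are held in active or silent domains by Trithorax and Polycomb proteins. Several members act in the mammary gland, among them Hoxc6, which is expressed there, and Hoxa9, Hoxb9 and Hoxd9, which act together in its growth at pregnancy.

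Some of the stretches that carried large differences in the clusters at week 12 are printed first, since most of the lower ones lie inside genes and not at their start. They are reference sequence from GRCm38/mm10 on the + strand, with capitals at the CpGs that were measured.
Hoxb6 coding exon, inside the homeobox, chr11:96300773-96300843: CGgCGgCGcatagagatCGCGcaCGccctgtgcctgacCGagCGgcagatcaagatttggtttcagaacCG
Hoxa3 intron, chr6:52177508-52177599: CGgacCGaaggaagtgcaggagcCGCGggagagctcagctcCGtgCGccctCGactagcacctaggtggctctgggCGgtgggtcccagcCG
Hoxb1 coding exon, chr11:96365875-96365928: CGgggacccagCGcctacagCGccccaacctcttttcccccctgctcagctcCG
Hoxc9 intron, chr15:102978910-102978986: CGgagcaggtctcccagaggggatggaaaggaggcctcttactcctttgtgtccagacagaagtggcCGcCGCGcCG
Upstream of Hoxa6, chr6:52209440-52209646: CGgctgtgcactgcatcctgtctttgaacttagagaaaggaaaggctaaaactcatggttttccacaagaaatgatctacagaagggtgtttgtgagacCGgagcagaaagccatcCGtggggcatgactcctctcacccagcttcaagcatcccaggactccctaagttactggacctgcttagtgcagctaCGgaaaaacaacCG
The stretches of Hoxb6 and Hoxa3 were less methylated in PyMT mice and the last 3 more methylated, with the values given with each stretch below.

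A mouse's library held 1314077 to 1435757 positions at a mean coverage of 60.2 to 79.2 reads, and the mean coverage per Hox gene was 49.8 to 111 reads. Epithelial markers, which are unmethylated where they are used, served to check the tissue: the mean promoter methylation of the 9 listed epithelial genes was 3.79 to 7.24% in PyMT mice and 12.8 to 18.8% in FVB mice, and all 9 were lower in PyMT mice. The 5 of 8 adipocyte genes with a measured promoter had a mean of 37.8 to 44.6% in PyMT and 44.9 to 51.1% in FVB mice, with 2 higher and 2 lower. Of all promoters 17.0% were higher and 16.9% lower. The 3 of 6 endothelial genes ranged from 31.1 to 37.0% in PyMT and 31.1 to 38.8% in FVB mice, and the 2 of 7 leukocyte genes from 24.3 to 37.9% and 34.4 to 38.8%. The epithelial and adipocyte promoter lists separated the strains without overlap. Over whole genes the 5 measured leukocyte genes did so too, at 48.8 to 57.5% in PyMT and 59.3 to 63.6% in FVB mice, as did the 5 endothelial genes at 62.7 to 66.3% and 66.4 to 69.8%. The part of these cell types in the Hox results was not tested. In 2 FVB mice the Hox genes lay nearer to PyMT levels than in other FVB mice. Of the 30 Hox genes that differed between strains, week 6 FVB mouse 2 was the FVB mouse nearest to the PyMT side at 10 and week 8 FVB mouse 1 at 6, against 0 to 4 for each other FVB mouse. Over the 26 promoters that differed, the same mice were nearest at 7 and 4, against 5 for week 6 FVB mouse 1 and 0 to 3 for each other. The second mouse thus did not stand out over promoters. Mean promoter methylation over the epithelial genes was 14.7% in week 6 FVB mouse 2 and 13.4% in week 8 FVB mouse 1, within the FVB range. Values without both mice are given beside the results that moved. Both were picked for lying near PyMT levels at these same Hox genes. Leaving them out therefore tends to widen the differences, and a wider difference is no added evidence.

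In FVB mice the clusters were sparsely methylated. The mean level over Hox positions was 8.57% (median 2.15%), against 26.1% over all positions, and only 9 of 2988 Hox positions reached 80%, against 19.1% of all positions. Below 5% lay 64.0% of Hox positions, 21.4% lay between 5 and 20% and 14.4% between 20 and 80%. Cluster A had the highest control mean, 11%, followed by cluster B with 9.39%, cluster D with 7.50% and cluster C with 5.52%. Over gene bodies and TSS windows together the mean was 16.7% over anterior genes (paralog groups 1 to 3), 10.0% over central genes (groups 4 to 8) and 4.25% over posterior genes (groups 9 to 13). Position counts were 989, 919 and 1383, with 303 positions counted in more than 1 of these classes because genes overlap. Near TSSs alone the means were 8.85, 9.24 and 3.91%, and the medians over all positions of the 3 classes were 10.6, 1.57 and 1.61%, so the order of the classes changed with the measure.

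To ask when the clusters departed from controls, each position was compared between PyMT and age-matched FVB mice. A differentially methylated cytosine (DMC) had a q-value under 0.01 in a logistic regression of reads and a pooled difference of at least 10 points. Hyper-DMCs in the Hox clusters rose in number with stage, with 54, 56, 123 and 210 at weeks 6, 8, 10 and 12. These were 1.81, 1.87, 4.12 and 7.03% of Hox positions, beside 2.62, 3.2, 4.39 and 4.44% of all positions. Hypo-DMCs were more frequent and had no such trend, with 292, 281, 395 and 304, or 9.77, 9.40, 13.2 and 10.2% of Hox positions beside 6.01, 7.1, 8.42 and 8.53% of all positions. This test takes reads as its unit and not mice, so spread between mice adds to its calls. Without week 8 FVB mouse 2 the hypo-DMCs of week 8 numbered 183, and without week 12 PyMT mouse 1 those of week 12 numbered 192. With a correction for the spread between mice the counts were 14, 19, 60 and 118 hyper-DMCs and 81, 63, 246 and 142 hypo-DMCs.

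The share called in each direction differed with where in a gene a position lay and with its level in controls. Within 2 kb of a TSS, hyper-DMCs went from 2.14% of Hox positions at week 6 to 7.50% at week 12, and the share over all such positions in the genome went from 0.887 to 2.29%. In gene bodies outside these windows, 116 of 560 Hox positions (20.7%) were hypo-DMCs at week 6 and 115 (20.5%) at week 12, while hyper-DMCs numbered 2 and 28. Among Hox positions below 5% in controls, hyper-DMCs went from 0.889% to 5.49% between weeks 6 and 12, beside 0.246 and 1.12% of all such positions. The same measure reached 9.59% in cluster D, 61 of 636 positions. Among the 429 Hox positions between 20 and 80% in controls, 49.4% were hypo-DMCs at week 6 and 53.6% at week 12, beside 26.0 and 31.6% of all such positions. In cluster C, with 35 positions in that range, 34.3% were hyper-DMCs and 17.1% hypo-DMCs at week 12.

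**Figure D1:**
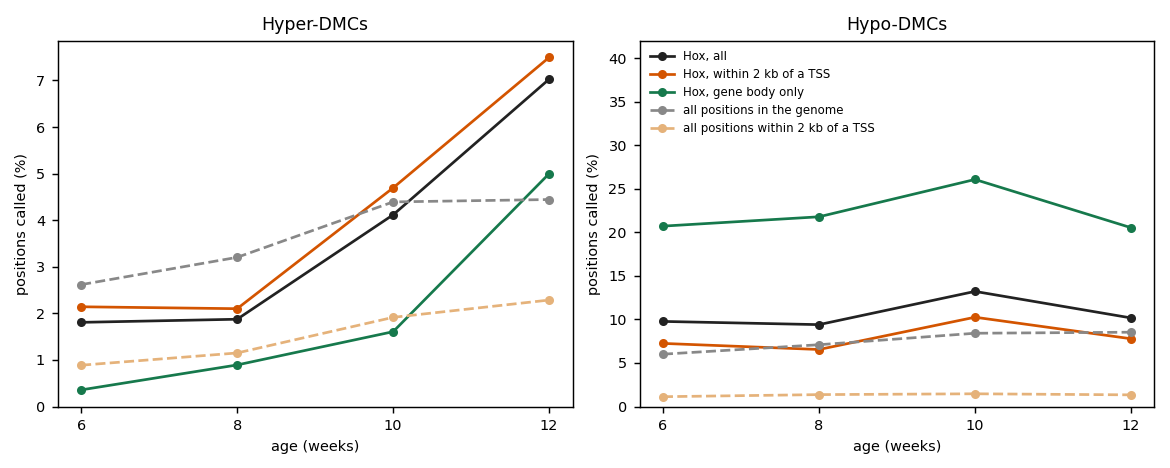
Percent of positions called as hyper-DMCs (left) and hypo-DMCs (right) at weeks 6, 8, 10 and 12, for all Hox positions, those within 2 kb of a TSS and those in gene bodies only (solid lines), beside all positions and all positions within 2 kb of a TSS (dashed lines). Hyper-DMCs near Hox TSSs went from 2.14 to 7.50%, and gene-body hypo-DMCs were at 20.7% from the first stage.

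Few hypo-DMCs were seen at late carcinoma alone, whereas many hyper-DMCs were. Of 534 Hox positions that were hypo-DMCs at any stage, 118 were so at all 4 stages and 21 at late carcinoma alone, or 22.1 and 3.93%, beside 25.3 and 11.8% over all positions. Of 283 that were hyper-DMCs at any stage, 18 were so at all 4 stages and 120 at late carcinoma alone, or 6.36 and 42.4%, beside 14.1 and 16.5% over all positions. At 5 Hox positions the direction of the call changed between stages, as it did at 1842 of all positions.

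Averaged over the 4 weeks, cluster A was 3.02 points less methylated in PyMT than in FVB mice and cluster B 2.16 points less. These are means over positions, and Hoxa5, the gene with the largest fall, held 96 of the 839 positions of cluster A. Per mouse, cluster A lay between 6.08 and 11.7% in PyMT mice and between 7.98 and 12.4% in FVB mice, so the strains overlapped. The exact permutation test of strain labels within week gave adjusted p = 0.0007 for cluster A and 0.0003 for cluster B, over the 4 clusters. Cluster D was lower by a smaller amount, -0.964 points (exact permutation test, adjusted p = 0.0222), and cluster C was higher by 0.779 points (adjusted p = 0.0398 in the same exact test). Without the 2 FVB mice named above the differences were -3.56, -2.46, 0.750 and -1.14 points for clusters A to D, and that of cluster C was no longer called (exact permutation test, adjusted p = 0.0655). Cluster C also lost its call when any of 13 of the 22 mice was left out, and cluster D without week 12 PyMT mouse 3 (-0.709 points). The call of cluster D also ended with positions weighted by coverage (-0.377 points), with 20 reads or more (-0.694) and with the replicate block (-0.874).

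Differences between clusters were tested within each mouse, over 6 pairs. The PyMT minus FVB difference of cluster A lay below that of cluster C by 3.79 points (exact permutation test, adjusted p = 0.00015) and below that of cluster D by 2.05 points (adjusted p = 0.00315 in the same exact test). That of cluster B lay below that of cluster C by 2.94 points and below that of cluster D by 1.2 points, with exact permutation adjusted p = 0.0003 and 0.0212. Cluster C lay 1.74 points above cluster D in its difference (exact permutation test, adjusted p = 0.00015). Clusters A and B differed by -0.855 points, which did not pass (exact permutation test, adjusted p = 0.104), while -1.17 points without week 12 PyMT mouse 3 did.

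These means join opposite changes near gene starts and inside genes, as cluster D shows. Within 2 kb of a TSS, cluster D was 1.39 points higher in PyMT mice (exact permutation test, adjusted p = 0.0005). Its PyMT mice stood at 3.05 and 3.16% at week 6, 4.13, 4.37 and 4.37% at week 8, 4.94, 4.95 and 4.76% at week 10, and 6.63 and 5.46% at week 12. The 12 FVB mice stayed between 2.73 and 3.62%, so from week 8 on every PyMT mouse lay above every FVB mouse. The difference between strains near these TSSs was larger by 1.63 points at weeks 10 and 12 than at weeks 6 and 8 (exact permutation test, adjusted p = 0.0203 over the 4 clusters). In gene bodies cluster D was 8.38 points lower in PyMT mice, which lay between 10.8 and 15.8% against 17.4 to 23.7% in FVB mice with no overlap (exact permutation test, adjusted p = 0.0001).

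The other clusters did not all split in this way. Cluster A was lower near TSSs, by 2.89 points, and in gene bodies, by 3.72 points, with exact permutation adjusted p = 0.0005 and 0.00427. Hoxa5, at -18.7 points, held 96 of its 709 positions near TSSs. Of the 10 promoters of cluster A 2 were lower and 3 higher, beside 16.9 and 17.0% of all promoters, with a median of -0.515 points. Cluster B was lower by 1.51 and 5.18 points, with exact permutation adjusted p = 0.0005 and 0.0002. Of its 10 promoters 4 were lower and 3 higher, with a median of -0.172 points. Cluster C was 1.07 points higher near TSSs and 0.873 points lower in gene bodies, with exact permutation adjusted p = 0.00983 and 0.0321.

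**Figure D2:**
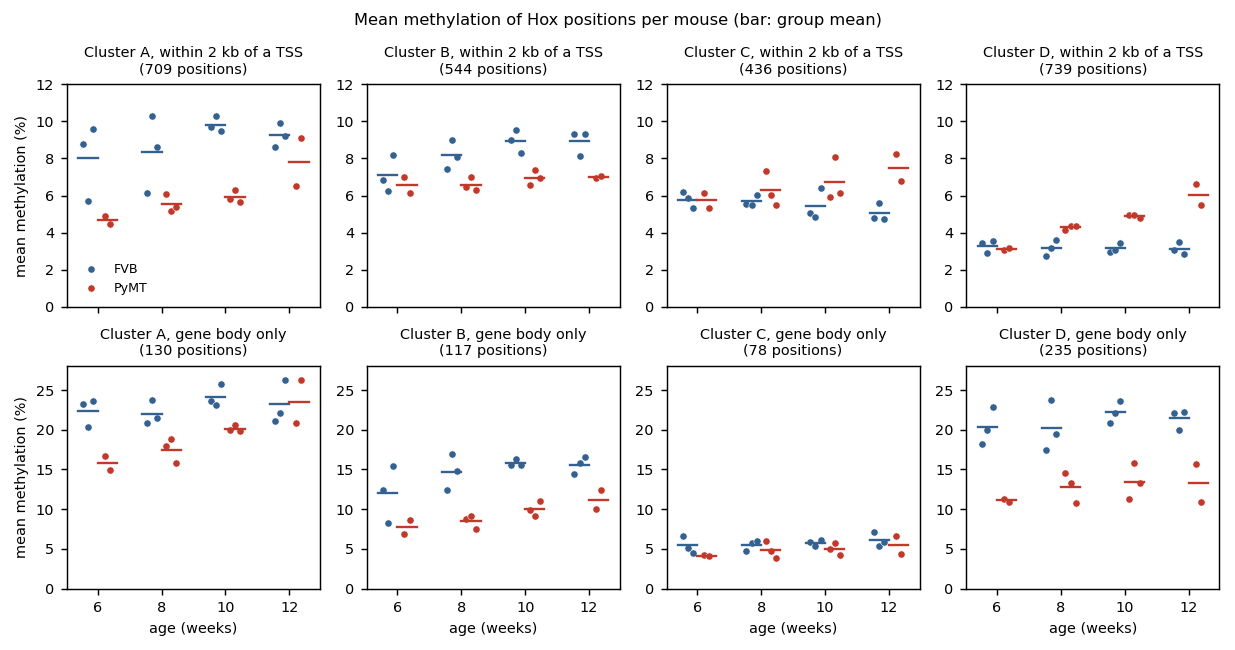
Mean methylation (percent) of each mouse at weeks 6 to 12 over the positions of clusters A to D within 2 kb of a TSS (upper row) and in gene bodies only (lower row); points are mice and bars are group means. Near the TSSs of cluster D the PyMT mice rise from 3.05% at week 6 to 6.63% at week 12 while FVB mice stay between 2.73 and 3.62%, and in its gene bodies all PyMT mice lie below all FVB mice.

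Position along the clusters was the second axis. Anterior genes were 4.57 points lower in PyMT mice and central genes 3.37 points lower, both with an exact permutation adjusted p = 3.75e-05 over the 3 classes. The raw p of 2.5e-05 behind these is the smallest that the 40000 arrangements of strain labels can give. Posterior genes differed by 0.394 points, which was not called (exact permutation test, adjusted p = 0.0726), though 0.440 points was called without week 6 PyMT mouse 2. All 3 differences between classes passed: the anterior class lay below the central class by 1.2 points and below the posterior class by 4.96 points, and the central class below the posterior class by 3.76 points (exact permutation tests, adjusted p = 0.000475, 3.75e-05 and 3.75e-05).

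The anterior difference was not the same in all parts of the genes. Near their own TSSs anterior genes were 1.14 points higher in PyMT mice, the posterior genes 0.652 points higher and the central genes 3.07 points lower (exact permutation tests, adjusted p = 0.00755, 0.00755 and 0.000375). Hoxd1, at 6.44 points, held 84 of the 322 anterior positions there, and Hoxa5, at -18.7 points, 96 of the 835 central ones. Among 7 anterior promoters 4 were higher and 1 lower, and among 15 central ones 4 and 5. Over all promoters 17.0% were higher and 16.9% lower. The classes were not tested without these genes. In gene bodies all 3 classes were lower, by 7.02 points for anterior, 6.28 for central and 2.54 for posterior genes (exact permutation tests, adjusted p = 3.75e-05, 3.75e-05 and 0.00035). Of the 84 central gene-body positions, 41 belonged to Hoxd4 and also lay in Hoxd3, so they count in the anterior class too. A further 262 anterior positions lay inside a long anterior transcript but near the TSS of another Hox gene, and these averaged 9.80% in PyMT and 17.7% in FVB mice, a difference of -7.79 points. Of the 405 anterior gene-body positions, 404 belonged to Hoxa3, Hoxb3 or Hoxd3. Their longest RefSeq transcripts span 44006, 24805 and 36279 bases, and that of Hoxa3 reaches over Hoxa4, Hoxa5 and Hoxa6, with which it shares 256 of its 375 positions. The body-only positions of Hoxa3 averaged 23.1% in PyMT and 27.1% in FVB mice, those of Hoxb3 11.9 and 19.9%, and those of Hoxd3 12.7 and 20.7%.

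Each gene was then tested with limma on its mean methylation per mouse, with adjusted p over 18678 genes. At hyperplasia 2 of 38 Hox genes were higher in PyMT mice and 4 lower, beside 5.03 and 16.6% of all genes. At adenoma/MIN 5 were higher and 8 lower, beside 10.1 and 21.8%. At early carcinoma 12 were higher and 11 lower, beside 12.5 and 25%, and at late carcinoma 12 were higher and 7 lower, beside 12.8 and 24.1%. Over the average of the 4 weeks 14 were higher and 16 lower, beside 18.4 and 34.8% of all genes, and the median difference was -0.0678 points for Hox genes and -0.0886 for all genes. Over promoters alone (2 kb around the TSS), 0, 5, 11 and 15 of 38 were higher at the successive stages, beside 2.83, 8.79, 11.6 and 12.6% of 16407 promoters. At hyperplasia 6 promoters had an unadjusted limma p under 0.05 on the higher side. The promoters that were lower numbered 1, 4, 7 and 5, beside 5.85, 8.52, 10.6 and 9.47%. Averaged over the weeks 17 promoters were higher and 9 lower, beside 17.0 and 16.9% of all promoters. All PyMT mice lay above all FVB mice at the promoters of Hoxa7 and Hoxd1 and below them at that of Hoxb5, beside 4.51 and 5.35% of all promoters. Without the 2 FVB mice named above, which were picked for lying near PyMT levels, 10 genes were lower at hyperplasia and 13 at adenoma/MIN. The early counts rested on few mice: the genes lower at hyperplasia numbered 1 or 2 without PyMT mouse 1 or 2 or FVB mouse 1 or 3 of that week, and those lower at adenoma/MIN 4 or 5 without FVB mouse 2 or PyMT mouse 3 of that week. At late carcinoma 4 genes were lower without PyMT mouse 1.

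**Figure D3:**
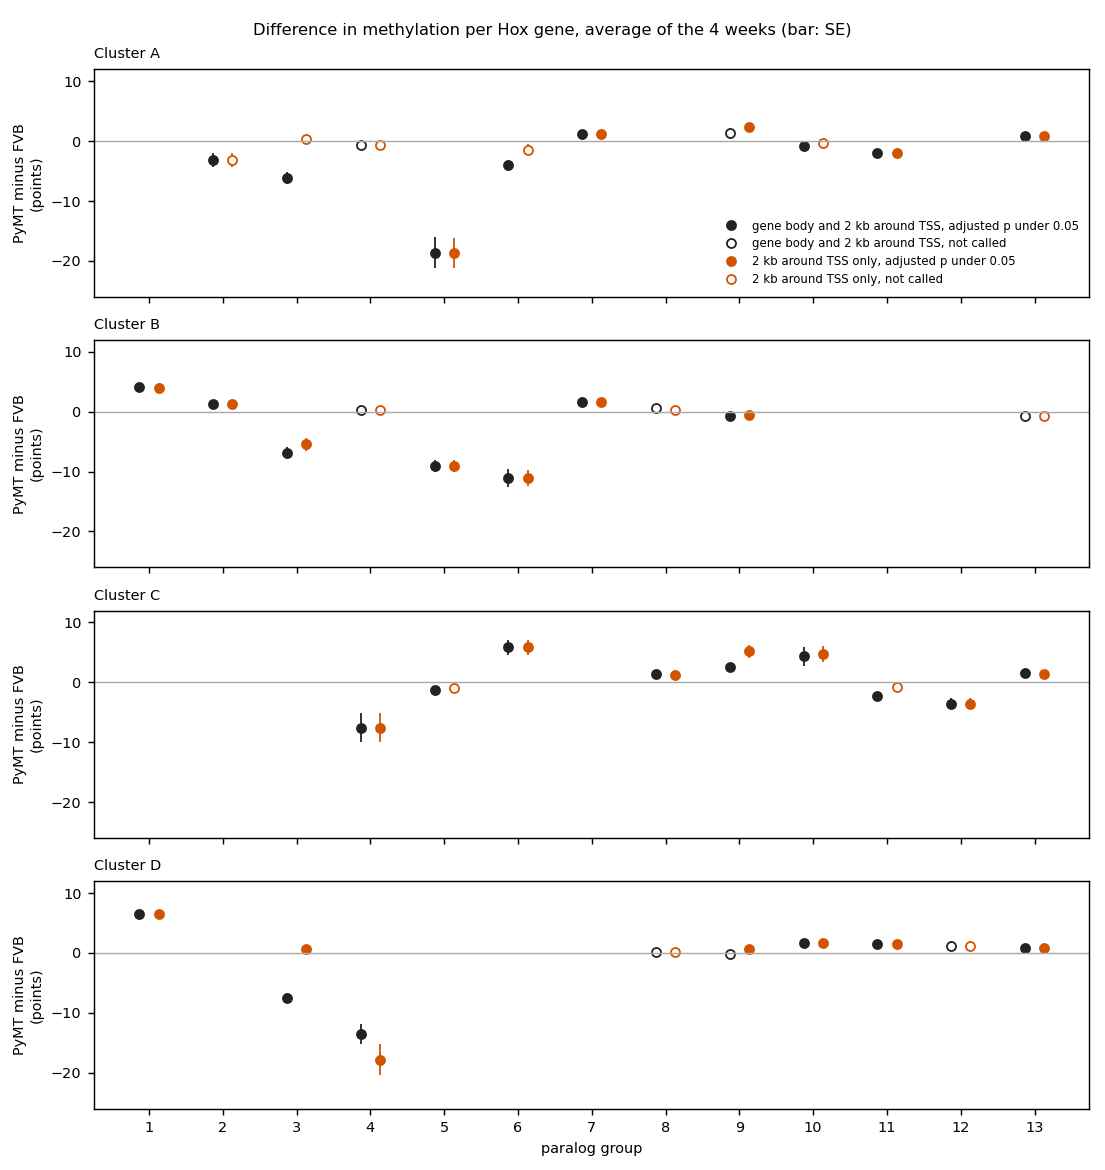
Difference in mean methylation between PyMT and FVB mice (points, average of the 4 weeks, bars are SE) for each Hox gene by paralog group, over the gene body and 2 kb around the TSS (black) and over 2 kb around the TSS only (orange), filled where the limma adjusted p is under 0.05. Hoxa5, Hoxd4, Hoxb6 and Hoxb5 lie farthest below 0, and Hoxd1 and Hoxc6 farthest above.

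Over whole genes some paralog groups moved in 1 direction, beside 18.4% of all genes higher and 34.8% lower. Both measured members of paralog group 1, Hoxb1 and Hoxd1, were higher, as were both of group 7, Hoxa7 and Hoxb7. All 3 of group 3, Hoxa3, Hoxb3 and Hoxd3 (the first and last with positions shared with central genes), and all 3 of group 5, Hoxa5, Hoxb5 and Hoxc5, were lower. Over promoters alone groups 1 and 7 kept their direction, but group 3 did not: Hoxb3 was lower, Hoxd3 higher and Hoxa3 not called. In group 5 the promoters of Hoxa5 and Hoxb5 were lower and that of Hoxc5 was not called. In group 13, whose genes shape the digits and the tail end, Hoxa13, Hoxc13 and Hoxd13 were higher and Hoxb13 differed by -0.668 points without passing the test (limma, adjusted p = 0.245). Group 6 was mixed, since Hoxa6 and Hoxb6 were lower and Hoxc6 was higher.

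In cluster A 6 of 10 genes were lower and 2 higher, beside 34.8 and 18.4% of all genes. Hoxa5, which acts in lung and mammary gland development, fell most: its lowest, median and highest levels were 4.91, 7.64 and 15.6% in PyMT mice and 12.5, 28.6 and 37.8% in FVB mice. The strains overlapped through week 12 PyMT mouse 3 and the 2 FVB mice named above, at 12.5 and 14.2%. The difference was -18.7 ± 2.60 points (SE, limma, adjusted p = 1.11e-05), and -21.5 points without those 2 FVB mice. At the single stages it was -18.3, -16.7, -23.0 and -16.6 points, so it was present at hyperplasia. Of its 96 positions 75, 66, 84 and 71 were hypo-DMCs at weeks 6, 8, 10 and 12, and 42 were so at all 4. Hoxa3, needed for the thymus and parathyroid, was lower by -6.18 ± 1.0 points (SE, limma, adjusted p = 5.50e-05), while its promoter differed by 0.391 points without passing the test (limma, adjusted p = 0.194). Much of the Hoxa3 value comes from positions it shares: the 256 shared ones differed by -7.56 points and the 119 in no other Hox gene by -3.21 points, so its fall and those of Hoxa5 and Hoxa6 are not separate results. Hoxa6, a trunk gene, was lower by -4.06 ± 0.926 points (SE, limma, adjusted p = 0.00129). It was not called on the logit scale or with positions weighted by coverage (-2.40 points), and its promoter differed by -1.41 points without passing (limma, adjusted p = 0.272). Hoxa10 and Hoxa11, both active in the uterus, were lower by -0.749 and -1.99 points (limma, adjusted p = 0.00662 and 0.0160). Hoxa7 and Hoxa13 were higher by 1.24 and 0.897 points (limma, adjusted p = 1.57e-06 and 0.000206), from FVB means of 0.571 and 1.41%. At Hoxa7 PyMT mice ranged from 0.977 to 2.64% and FVB mice from 0.323 to 0.882%, without overlap. It shared this with Hoxd1 alone among Hox genes, 2 of 38, beside 4.72% of all genes.

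In cluster B 4 of 10 genes were lower and 3 higher, beside 34.8 and 18.4% of all genes. Hoxb6 had lowest, median and highest levels of 4.70, 6.68 and 10.5% in PyMT mice and 9.77, 17.2 and 28.1% in FVB mice. Its difference was -11.1 ± 1.43 points (SE, limma, adjusted p = 4.73e-06). Hoxb5, which acts in the neural crest cells that innervate the gut, had 8.46, 9.39 and 12.3% in PyMT mice and 13.3, 19.1 and 24.9% in FVB mice, so all PyMT mice lay below all FVB mice. Only Hoxb5 and Hoxd3 did so among Hox genes, 2 of 38, beside 13.4% of all genes. The Hoxb5 difference was -9.01 ± 0.994 points (SE, limma, adjusted p = 8.21e-07), and by week it was -4.23, -8.59, -9.65 and -13.6 points. The PyMT mice at Hoxb5 stood at 9.29 and 9.49% at week 6 and at 8.81 and 8.93% at week 12, whereas the FVB mice lay at 13.3 to 14% at week 6 and at 20.4 to 23.5% at week 12. The change of the difference from week 6 to week 12, -9.36 points, did not pass in limma (adjusted p = 0.126), though it was called when week 8 FVB mouse 2 was left out. Hoxb3, a hindbrain gene, was lower by -6.95 ± 0.989 points (SE, limma, adjusted p = 1.41e-05). Hoxb1, the gene of the hindbrain segment that gives rise to the facial nerve, was higher by 4.19 points (limma, adjusted p = 6.98e-05), with PyMT mice at 21.5 to 27.2% and FVB mice at 15 to 22.5%. Hoxb2 was higher by 1.29 points.

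In cluster C 5 of 9 genes were higher and 4 lower, beside 18.4 and 34.8% of all genes. Hoxc6 had lowest, median and highest levels of 12.8, 15.6 and 20.1% in PyMT mice and 5.86, 10.6 and 14.5% in FVB mice. The difference was 5.87 ± 1.24 points (SE, limma, adjusted p = 0.000654), and it was 5.52, 5.50, 6.38 and 6.09 points at the 4 stages. Hoxc10, which marks motor neurons of the lumbar cord, had 11.3, 13.6 and 20.5% in PyMT and 5.70, 9.56 and 19.0% in FVB mice. Its difference was 4.34 ± 1.55 points (SE, limma, adjusted p = 0.0258). This was 3.33 points and not called without week 12 PyMT mouse 1, and 5.78 points without the 2 FVB mice, which stood at 19.0 and 16.7%. Hoxc4 had 2.27, 5.07 and 10.3% in PyMT and 1.27, 13.9 and 20.8% in FVB mice, where the same 2 FVB mice held the lowest values, 1.27 and 1.5%. Its difference was -7.58 ± 2.45 points (SE, limma, adjusted p = 0.0151) with them and -10.2 points without them. Hoxc8, Hoxc9 and Hoxc13 were higher by 1.44, 2.57 and 1.54 points, and Hoxc11 was lower by -2.23 points.

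In cluster D 4 of 9 genes were higher and 2 lower, beside 18.4 and 34.8% of all genes. A large rise and large falls lay side by side. Hoxd1, which patterns pain-sensing neurons, was nearly unmethylated in FVB mice, at 1.41 to 2.38%. PyMT mice stood at 3.81 and 4.49% at week 6, 6.24, 8.03 and 6.91% at week 8, 9.11, 9.20 and 9.40% at week 10, and 15.2 and 9.36% at week 12. All 10 lay above all 12 FVB mice, and the average difference was 6.44 ± 0.482 points (SE, limma, adjusted p = 9.45e-09). By week it was 2.45 points, not called, then 5.29, 7.33 and 10.7 points. Hyper-DMCs at Hoxd1 numbered 5, 10, 23 and 40 of 84 positions. Hoxd4, a gene of the neck vertebrae, had lowest, median and highest levels of 15.5, 20.7 and 29.6% in PyMT mice and 27.1, 36.8 and 38.5% in FVB mice. Its difference was -13.5 ± 1.66 points (SE, limma, adjusted p = 2.76e-06). Hoxd3, in whose long transcript the whole of Hoxd4 lies, had 10.2, 11.5 and 15.1% in PyMT and 16.1, 19.6 and 21.9% in FVB mice, with no overlap. It was lower by -7.48 ± 0.836 points (SE, limma, adjusted p = 9.66e-07), yet its promoter was higher by 0.648 points (limma, adjusted p = 0.00150). Hoxd10 and Hoxd11, limb and lumbar genes, were higher by 1.66 and 1.54 points.

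The study named 6 Hox genes for promoter hyper-DMCs found in these mice, so their direction here is not independent evidence. Hoxb7, Hoxb8, Hoxc12 and Hoxd13 were named for late carcinoma alone and Hoxc5 and Hoxc6 for all stages, whereas the values here average the 4 weeks unless a week is given. The study's lists also rest on single cytosines in promoters, while the values here are means over all positions. A gene with a lower mean can still hold a hyper-DMC. Over the gene, Hoxc6 was higher as given above, Hoxb7, a gene that can drive proliferation, by 1.61 points (limma, adjusted p = 9.70e-07) and Hoxd13 by 0.809 points (limma, adjusted p = 5.62e-05). Hoxb8 differed by 0.546 points and did not pass (limma, adjusted p = 0.0961). Hoxc5 and Hoxc12 were lower, by -1.34 and -3.55 points (limma, adjusted p = 0.0222 and 0.00538). At week 12 Hoxc12 differed by -0.982 points, which was not called (limma, adjusted p = 0.771). It was at -0.191 points and not called over the 4 weeks when only positions with 20 or more reads were kept. Hoxc5 was not called under 3 other settings or without either of 2 PyMT mice, week 6 mouse 2 and week 12 mouse 3. Over promoters Hoxc12 was lower too, by -3.55 points, and Hoxc5 differed by -0.976 points without passing (limma, adjusted p = 0.00716 and 0.111).

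Some strain differences grew between hyperplasia and late carcinoma. The difference rose at 5 of 38 genes and fell at none, beside 1.78 and 0.594% of all genes, and it rose at 6 of 38 promoters and fell at none, beside 2.8 and 0.11%. At an unadjusted limma p under 0.05 the signed PyMT minus FVB difference was higher at week 12 at 9 genes and lower at 2. A lower value can be a wider gap, as at Hoxb5, where the difference went from -4.23 to -13.6 points. The 5 genes called as rising were Hoxd1 (8.23 points), Hoxd10 (5.0), Hoxc13 (3.57), Hoxd11 (3.03) and Hoxb2 (2.22), with limma adjusted p = 0.00570, 0.0472, 0.00120, 0.00269 and 0.0223. On the logit scale 1 gene was called, and 3 were called without week 6 PyMT mouse 2 or week 12 FVB mouse 1. The promoter of Hoxd12 was added to these 5, with 9.17 points (limma, adjusted p = 0.0473). All 49 Hoxd12 positions lie in its promoter window, so the gene changed by the same 9.17 points and only the call differed. Hoxd12 went from -3.85 points at week 6 to 5.32 at week 12. Hoxc13, which controls hair keratins, stood at 1.80 and 2.07% in the week 6 PyMT mice and at 6.04 and 5.16% in those of week 12, while FVB mice stayed between 1.84 and 2.72%. Hoxd11 went from 2.26 and 2.82% to 5.81 and 4.98%, beside 1.80 to 2.98% in FVB mice. At the level of whole clusters, PyMT mice at weeks 10 and 12 were above those at weeks 6 and 8 by 1.97 points in cluster A, 0.740 in B, 0.918 in C and 1.46 in D, and none of these passed (exact permutation tests, adjusted p = 0.0519, 0.0519, 0.262 and 0.0519). Those of A, B and D passed without week 10 PyMT mouse 1, at 2.21, 0.851 and 1.66 points. FVB mice of the later weeks differed from the earlier ones by 1.37 points in A, 1.49 in B, -0.352 in C and 0.305 in D (exact permutation tests, adjusted p = 0.194, 0.0519, 0.262 and 0.411). The change in PyMT mice less that in FVB mice was 0.596, -0.752, 1.27 and 1.16 points, and none passed (exact permutation tests, adjusted p = 0.672, 0.484, 0.273 and 0.290).

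In search of where within the genes these differences lay, neighbouring Hox positions were joined into 156 stretches of at least 3 positions with gaps of at most 100 bases. In 13 of them the mean difference at late carcinoma was 20 points or more with a DMC of at least 25 points, and 10 of these were lower and 3 higher in PyMT mice. They were chosen for that difference, so their values are a description.

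The stretch in the Hoxd4 coding exon (4 positions) lay at 28.4 to 50.7% in PyMT mice and 53.3 to 78.4% in FVB mice, without overlap. Its differences by week were -26.3, -33.7, -29.6 and -33.9 points, near the same size at every stage. The Hoxb6 stretch (13 positions) lay at 7.10 to 20.1% and 18.6 to 57.6%, and here the differences were -9.64, -18.1, -39.0 and -30.5 points. The Hoxb5 stretch (21 positions) lay at 9.84 to 19.7% in PyMT and 20.7 to 41.7% in FVB mice, again without overlap, with differences of -9.58, -14.9, -17.4 and -25.6 points. The Hoxa3 intron stretch (11 positions) lay at 8.63 to 25.1% and 20.6 to 52.6%, and all 11 positions were hypo-DMCs at weeks 6, 8 and 10. A stretch in an intron of Hoxd3, chr2:74734592-74734787, lay at 12.0 to 36.4% in PyMT and 36.4 to 56.1% in FVB mice. Another lay in an untranslated part of a Hoxd9 exon, where the difference went from -5.97 points at week 6 to -21.0 at week 12. A stretch in the coding exon of Hoxd3 with a mean coverage of 31.6 reads had differences of -14.2, -32.6, 12.8 and -28.6 points, so its sign was not the same at all stages.

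The 3 higher stretches had different courses. The Hoxb1 coding exon stretch (7 positions, mean coverage 36.7 reads) lay at 38.9 to 69.4% in PyMT mice and at 14.8 to 34.8% in FVB mice, without overlap, and was higher by 20.2 points or more at every stage. The Hoxc9 intron stretch (5 positions) lay at 37.6 to 63.1% in PyMT and 13.3 to 50.5% in FVB mice. The highest FVB values, 50.5 and 47%, came from the 2 FVB mice named above, and at weeks 10 and 12 all FVB mice were between 15 and 18.3%. The stretch whose middle lies 871 bases upstream of Hoxa6 (6 positions) differed by 0.628, 2.19 and 6.65 points at weeks 6, 8 and 10 and by 21.2 points at week 12. Its week 12 PyMT mice stood at 77.8 and 69.5% and its week 12 FVB mice at 45.9 to 56.6%.

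**Figure D4:**
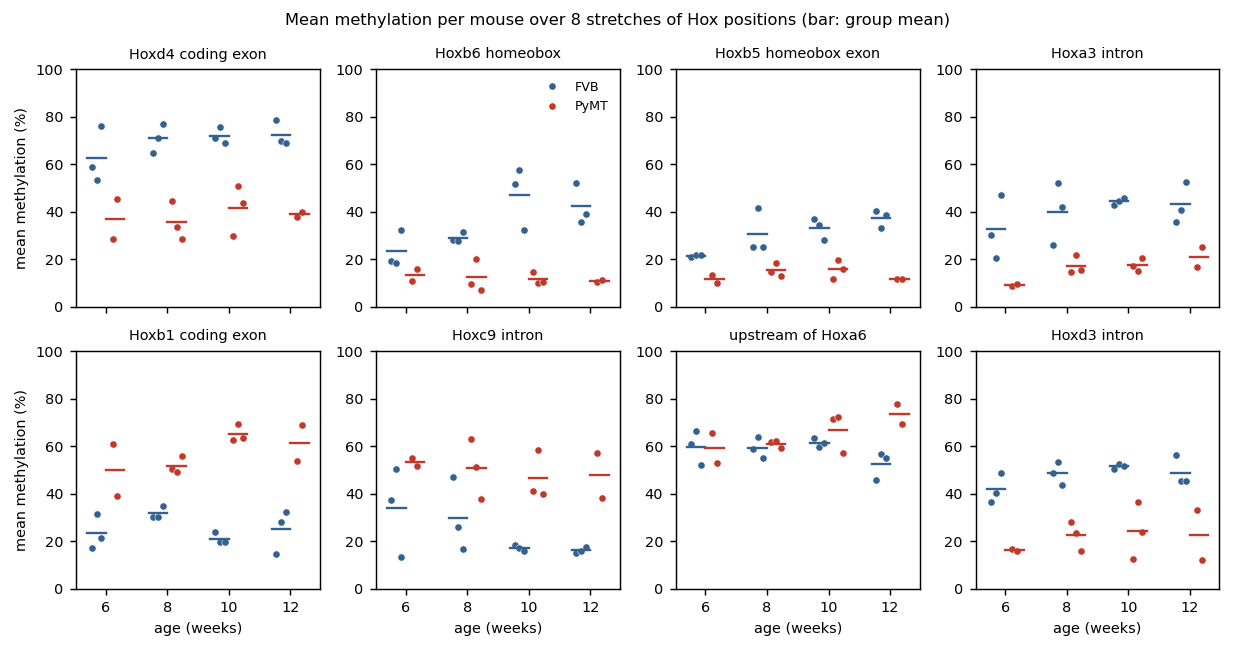
Mean methylation (percent) of each mouse at weeks 6 to 12 over 8 of the 13 stretches; points are mice and bars are group means. In the Hoxd4 and Hoxb1 coding exons the strains do not overlap at any week, and upstream of Hoxa6 they part at week 12 with PyMT mice at 69.5 and 77.8%.

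Since the Hoxd4, Hoxb6 and Hoxb5 stretches fall in or at the homeobox, the 60 codons that encode the DNA-binding homeodomain, the homeobox was examined in all members. It was chosen after these values were seen, so no test is given. Measured positions lay in the homeobox of 22 genes, 192 in all, and 67 of them (34.9%) were hypo-DMCs at week 12 and 7 (3.65%) hyper-DMCs, beside 8.53 and 4.44% of all positions and 10.2 and 7.03% of Hox positions. These shares are not matched for the level in controls, where homeobox means ran from 0.686% at Hoxb2 to 68.1% at Hoxd4. Positions below 5% in controls, 64.0% of Hox and 62.2% of all positions, have little room to fall by 10 points. The share among Hox positions between 20 and 80% in controls was given above. Of the 67, 32 were among the 35 homeobox positions of Hoxd4, Hoxb6 and Hoxb5, the genes that prompted the choice, and in the other genes 35 of 157 (22.3%) were hypo-DMCs. Of the 18 genes with 3 or more such positions, 13 had a lower mean in PyMT mice and 5 a higher one, with a median difference of -5.44 points. The largest falls were at Hoxa3 (-27.4 points, 3 positions), Hoxd4 (-24.1), Hoxb6 (-23.5), Hoxb5 (-18.4), Hoxa4 (-14.6) and Hoxb3 (-14.1). At Hoxb5 and Hoxb1 all PyMT mice lay below all FVB mice. Hoxb1 thus held opposite changes: its homeobox went from a mean of 14.8% in FVB to 4.75% in PyMT mice, while the coding stretch upstream of it was higher. The 5 genes with a higher homeobox were Hoxc6 (8.29 points), Hoxc8 (4.87), Hoxc13 (2.32), Hoxb2 (1.15) and Hoxb4 (0.0562).

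**Figure D5:**
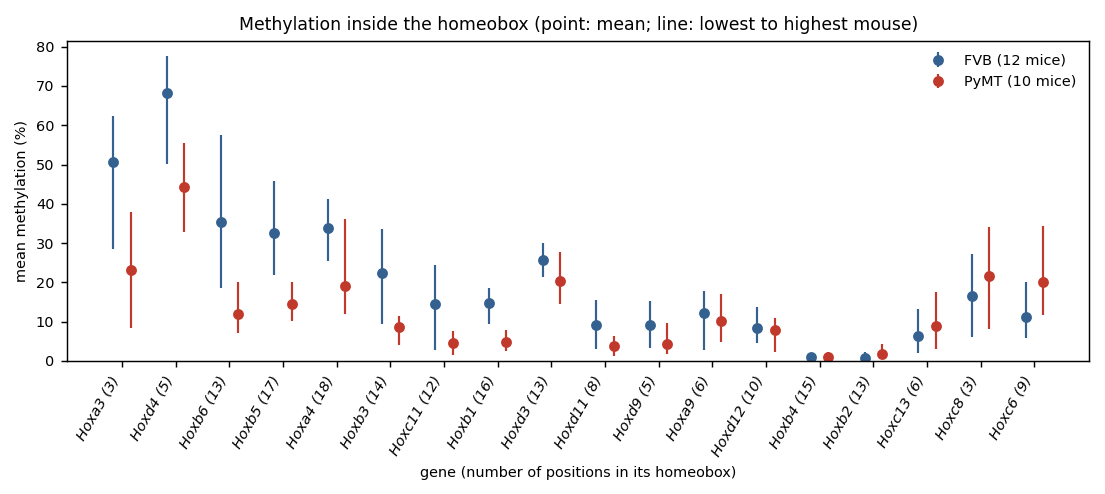
Mean methylation (percent) inside the homeobox for the 18 genes with 3 or more measured positions there; points are strain means and lines run from the lowest to the highest mouse, in 12 FVB and 10 PyMT mice. The means of Hoxa3, Hoxd4, Hoxb6 and Hoxb5 over mice are 18.0 to 27.4 points lower in PyMT mice, and those of Hoxc6 and Hoxc8 are higher.

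Genes that share the clusters with the Hox genes were taken from fixed lists. Of 16 noncoding genes inside the clusters 15 were measured, of which 10 were lower and 2 higher, beside 34.8 and 18.4% of all genes, with a median difference of -3.27 points. Those lower included Mir196a-1 by -14.3 points, Hoxaas2 by -11.6, Mir10b by -10.7 and Hotair, an RNA from cluster C studied for its role in silencing cluster D, by -9.90 (limma, adjusted p = 0.00526, 3.90e-06, 4.44e-06 and 0.00171). Haglr, which starts beside Hoxd1 on the other strand, was higher by 4.72 points, and Hotairm1, at the anterior end of cluster A, by 1.99 (limma, adjusted p = 6.56e-09 and 0.000569). The promoter of Hotairm1 differed by 0.0052 points without passing, and that of Haglr was higher by 6.44 points (limma, adjusted p = 0.970 and 1.08e-08). Several of these noncoding genes overlap Hox genes and share positions with them. The promoter windows of Haglr and Hoxd1 each held 84 positions and gave the same 6.44 points, so the Haglr value is not a separate result. Of 13 protein-coding neighbours 10 were measured, with 3 higher and 2 lower, beside the same shares. Evx2, a homeobox gene next to Hoxd13, was higher by 2.16 points, and its difference grew by 3.64 points from week 6 to week 12 (limma, adjusted p = 6.50e-08 and 0.00296). Its promoter was higher by 0.815 points, and the change there, 0.470 points, did not pass (limma, adjusted p = 0.0322 and 0.918).

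The partners and regulators of Hox proteins were given as lists for comparison. Of 9 cofactor genes, which encode homeodomain proteins that bind DNA with Hox proteins, 5 were higher and 2 lower over the gene, beside 18.4 and 34.8% of all genes. Meis1 was higher by 4.55 points and Pbx4 lower by -8.29 points (limma, adjusted p = 1.26e-08 and 1.42e-07), but the promoter of Pbx4 was higher, by 2.15 points (limma, adjusted p = 0.0127). Over their promoters 3 were higher, beside 17.0% of all promoters. Of 23 Polycomb and Trithorax genes 7 were higher and 5 lower, beside 18.4 and 34.8% of all genes, with a median of -0.0072 points. Cbx2, a Polycomb subunit that reads histone methylation, was higher by 5.10 points, and Kmt2b, a Trithorax-type histone methyltransferase, was lower by -2.96 points (limma, adjusted p = 1.78e-10 and 3.50e-09). Over promoters Cbx2 differed by -0.0637 points without passing, and Kmt2b was lower by -3.44 points (limma, adjusted p = 0.560 and 1.52e-08). Ezh2, Eed and Suz12, the core of Polycomb repressive complex 2, differed by -0.110, -0.0655 and -0.0072 points, and none passed (limma, adjusted p = 0.116, 0.550 and 0.932).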

How the data were processed

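Mammary tumours and glands of 10 PyMT and 12 FVB mice were profiled by ERRBS. The authors aligned reads to mm10 with Bismark, per the submitters' processing notes, and deposited for each mouse the coverage (a count of reads) and the percent of reads read as cytosine and as thymine at each CpG cytosine, strands apart, with at least 10 reads. Per the study's methods, 2 outlying samples had been removed. Methylated reads were recovered as coverage times percent, rounded. Genes came from the RefSeq curated annotation of GRCm38, the same assembly as mm10. The members and lists were chosen with earlier results of these data known.

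DMCs came from a likelihood-ratio test in logistic regression of the reads of each position, with Benjamini-Hochberg q under 0.01 over 1140639 positions and 10 points or more. Reads are its unit, and PCR duplicates and spread between mice are not modelled. Means per gene (3 or more positions) and per promoter were fitted in limma with all 8 groups in 1 model (trend and robust options), at an adjusted p under 0.05. Clusters and paralog classes were compared by exact permutation of strain labels within weeks, two-sided; at a single week this test cannot go below 0.1. Named genes were the 3 members of each cluster with the largest average difference in size, plus the Hox genes the study named; others were added after their values were seen. Mean coverage was 60.2 to 79.2 reads per mouse, and intervals are not given because spread between mice, not counting, sets the error. Alternatives were a coverage minimum of 20 reads, means weighted by coverage, the logit scale, a threshold of 25 points, added strands, near-TSS or body positions alone, a replicate block and leaving out each mouse. The logistic test alone was tried on simulated reads with known differences, without spread between mice. R 4.3.3 ran limma 3.58.1, and Python 3.11.15 ran pandas 2.3.3, scipy 1.17.1, numpy 2.4.6 and pysam 0.24.0. The sequences of some stretches are not reported here.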

Additional observations from a re-analysis of the deposited data

Results flagged for a closer look

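The signed PyMT minus FVB difference was higher at late carcinoma than at hyperplasia at 5 Hox genes (limma interaction of strain with week). The rise was 8.23 points at Hoxd1, 5.0 at Hoxd10, 3.57 at Hoxc13, 3.03 at Hoxd11 and 2.22 at Hoxb2. Over promoters it was 9.17 points at Hoxd12 (from -3.85 to 5.32) and 8.23 at Hoxd1. The promoter rise was 5.0 at Hoxd10, 3.53 at Hoxc13, 3.03 at Hoxd11 and 2.22 at Hoxb2. At most of these the promoter window holds every or nearly every position of the gene, so the 2 sets of values are not independent. Each stage was seen in other mice, and groups of 2 or 3 mice were not tested for an outlying mouse.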

How the results depend on the processing

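With a threshold of 25 points the Hox hyper-DMCs at the 4 stages numbered 13, 8, 21 and 30 and the hypo-DMCs 57, 57, 127 and 87. With the quasi-binomial correction they numbered 14, 19, 60 and 118 and 81, 63, 246 and 142. On the logit scale 1 gene was higher at hyperplasia and 2 at adenoma/MIN, 1 gene and 1 promoter rose from week 6 to week 12, 1 promoter was higher at hyperplasia and 1 at adenoma/MIN, and 3 were lower at early carcinoma. With means weighted by coverage 0 genes were higher at hyperplasia, and at adenoma/MIN 3 genes were higher, 5 lower and 3 promoters higher; with 20 reads or more, 0 genes were higher and 0 promoters lower at hyperplasia. Without the 2 FVB mice (an alternative chosen after seeing the data) 10 genes were lower at hyperplasia and 13 at adenoma/MIN, 2 promoters were higher and 5 lower at hyperplasia, and cluster C was at 0.750 points, not called.

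Near TSSs alone the sign turned for cluster D (1.39 points), anterior genes (1.14), cluster C minus D (-0.320), anterior minus central (4.21) and anterior minus posterior genes (0.486), and posterior genes (0.652), A minus B (-1.38) and the growth of the difference in cluster D (1.63) passed. In gene bodies alone it turned for cluster C (-0.873), posterior genes (-2.54), A minus D (4.66) and B minus D (3.21), and anterior minus central genes (-0.741) was not called. These alternatives use other positions. Weighted by coverage, clusters C (0.796) and D (-0.377) were not called, and with 20 reads or more cluster D (-0.694) was not, while posterior genes (0.547) were. The later weeks of PyMT mice passed with 20 reads or more in clusters A, B and D (1.99, 0.892 and 1.77 points) and weighted by coverage (1.74, 0.992 and 1.88), as did cluster B of FVB mice weighted (1.65). For these and the other changed calls the cause was not tested.

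Same-numbered mice did not deviate together, with correlations of -0.0391 to 0.0285 beside -0.0379 to 0.0619 for other pairs. No pairing by number was seen, though groups of 2 or 3 mice cannot exclude one. With the replicate block 1 gene was higher and 0 promoters lower at hyperplasia, and clusters C (0.762) and D (-0.874) and B minus D (-1.18) were not called.

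Leaving out each mouse in turn gave 183 to 341 hypo-DMCs at adenoma/MIN and 192 to 276 at late carcinoma. Genes higher at hyperplasia numbered 0 to 3, lower 1 to 6, lower at adenoma/MIN 4 to 12 and at late carcinoma 4 to 7, and 3 to 7 rose and 0 to 1 fell from week 6 to week 12. Promoters higher at hyperplasia numbered 0 to 1 and lower 0 to 1, higher at adenoma/MIN 2 to 5 and lower 1 to 6, lower at week 10 4 to 7 and at week 12 2 to 5, and 3 to 7 rose and 0 to 1 fell. Cluster C ranged from 0.577 to 0.981 points, D from -1.22 to -0.709, posterior genes from 0.325 to 0.463 and A minus B from -1.17 to -0.538. The cluster C call was lost without PyMT mouse 1 of week 6, 8 or 12, PyMT mouse 2 of week 10, PyMT mouse 3 of week 12, FVB mouse 1 or 2 of week 8, 10 or 12, or FVB mouse 3 of week 6 or 12. Later against earlier weeks ranged in PyMT mice from 1.28 to 2.26 points in A, 0.642 to 0.872 in B and 1.08 to 1.66 in D, and in FVB mice from 0.899 to 1.78 in A and 1.08 to 1.85 in B, the last 2 called without week 8 FVB mouse 2. Where an arm kept 1 mouse, limma takes its spread from the other groups. Single stages have 2 or 3 mice a strain, and positions under 10 reads were not seen.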

Other observations

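Smug1, a uracil-DNA glycosylase gene beside cluster C, differed more than any Hox gene in the direction of higher methylation. It was 12.2 points higher in PyMT mice over the 4 weeks (limma, adjusted p = 2.57e-09), and its difference grew by 12.0 points from week 6 to week 12 (limma, adjusted p = 0.0153). Among the Polycomb and Trithorax genes Kdm6b, a histone demethylase, was higher by 4.26 points and Phf19, a Polycomb accessory subunit, lower by -3.48 points (limma, adjusted p = 2.04e-08 and 2.09e-07). However, the promoter of Phf19 was higher, by 0.522 points, and that of Kdm6b differed by 0.114 points without passing (limma, adjusted p = 0.000191 and 0.665). The difference at none of the 9 cofactor and 23 Polycomb and Trithorax genes was called in limma as changed between weeks 6 and 12.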
